A study of Homo sapiens with 8 samples.

Results

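The genes described here are ligands and receptors of the tumour necrosis factor (TNF) superfamily, read in KBM7 cells, a near-haploid human chronic myeloid leukaemia line. They were chosen by symbol, as the genes that start with TNFSF (ligands) or TNFRSF (receptors) plus LTA and LTBR. TNFSF10, TNFRSF10A, TNFRSF10B, TNFRSF1A, TNFRSF1B and TNFRSF4 were left out by that rule. It gave 26 genes with a probe set of their own among the 18132 genes with one, of which 10 encode ligands and 16 encode receptors. TNFSF13, TNFRSF6B and the TNFSF12-TNFSF13 readthrough gene fit the rule too, but are covered only by probe sets shared with other genes, so no value is given for them.

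TNF superfamily ligands are mostly trimeric proteins on the cell surface or shed from it, and each binds a small set of receptors with cysteine-rich repeats. Receptors without a death domain recruit TRAF adaptors and turn on NF-kappaB, by the canonical route or by the non-canonical route through NFKB2 and RELB, whereas death receptors can also start apoptosis. In blood cells the family carries costimulatory and survival signals between lymphocytes, antigen-presenting cells and stroma, and several of its genes are themselves known NF-kappaB or interferon targets.

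The study hybridised 1 array to each of 8 RNA samples. The groups were a JAK2 mutant with IFN-gamma or unstimulated, set against wild-type (WT) cells with IFN-gamma or unstimulated (WT replicate 1), and a TNFRSF1A mutant with TNF-alpha or unstimulated, set against WT cells with TNF-alpha or unstimulated (WT replicate 2). IFN-gamma was given at 100 ng/ml and TNF-alpha at 10 ng/ml, both for 6 hours, and all of these groups are KBM7 cells in the same medium. The mutants carry gene-trap insertions, JAK2 being a kinase of the IFN-gamma receptor and TNFRSF1A the main TNF-alpha receptor. Each mutant is 1 line, called a clone here, with 1 culture a condition, so an effect of the trapped gene and a property of that clone cannot be told apart. The arrays read bulk RNA, in which fewer cells that express a gene and less RNA per cell cannot be told apart.

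All levels are log2 normalised intensities, and all differences are log2 differences between 2 arrays. A level of 6 on at least 1 array was taken as expressed, and a difference was counted from 2-fold (a log2 difference of 1), or from 1.5-fold where stated, among the 11529 genes that reached this level. Only unstimulated WT cells had 2 arrays, so the differences are given without a test. The spread is that of the pair of unstimulated WT arrays, whose differences had an SD of 0.38 over genes. The labels do not say whether that pair came from separate cultures, and its arrays also belong to different experiments. The value of every array is the level of a probe set, so levels are not compared between genes.

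The trapped genes were low on the arrays labelled as their mutants. All 3 JAK2 probe sets ran from 3.61 to 5.32 on the JAK2 mutant arrays, against 5.97 to 7.01 on the other 6 arrays. The brightest TNFRSF1A probe set was at 6.55 and 6.56 on the TNFRSF1A mutant arrays, still above log2 6, against 9.23 to 9.83 on the other 6. Each of the 4 TNFRSF1A sets was lower on the mutant arrays. The narrowest gap was 5.99 to 6.01 against 6.09 to 6.37. Both cytokines acted on WT cells: 9 of 9 compared IFN-gamma genes were at least 2-fold higher (median 2.87) and 8 of 9 compared TNF-alpha genes (median 2.31). Of all genes compared 0.607% and 0.321% differed 2-fold. The listed genes were chosen with earlier results of these data known, so these counts are no independent check. In the JAK2 mutant 0 of 9 passed with IFN-gamma (median 0.42), and in the TNFRSF1A mutant 0 of 9 passed with TNF-alpha (median 0.18). Of the 9 myeloid progenitor markers with a value 8 reached log2 6 (SPI1 did not), among them CD34, KIT and MPO. Markers of other lineages reached it as well: 5 of 5 NK cell, 3 of 3 plasma cell, 3 of 4 B cell, 3 of 4 megakaryocyte, 2 of 3 erythroid and 2 of 5 endothelial or stromal markers. Of 6 T cell markers CD3D alone reached it, of 5 monocyte or macrophage markers CSF1R alone, and of 4 dendritic cell markers 0.

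Of the 26 genes, 14 reached log2 6 on at least 1 array, which is 53.8% of them beside 63.6% of all genes. These were 6 of the 10 ligands and 8 of the 16 receptors. On all 8 arrays the level held for 11 genes. TNFRSF25 reached it on 6 arrays, TNFSF12 on 5 and TNFSF14 on 2. From 12 to 14 of the genes were at or above log2 6 on any single array. The other 12 stayed between 3.11 and 5.56 on every array. The median range of the expressed genes over the 8 arrays was 0.68, beside 0.50 for all genes compared, and a range over 1 was seen in 3 of them (TNFRSF25, TNFSF4 and TNFSF13B), beside 12.8% of all genes compared.

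**Figure D1:**
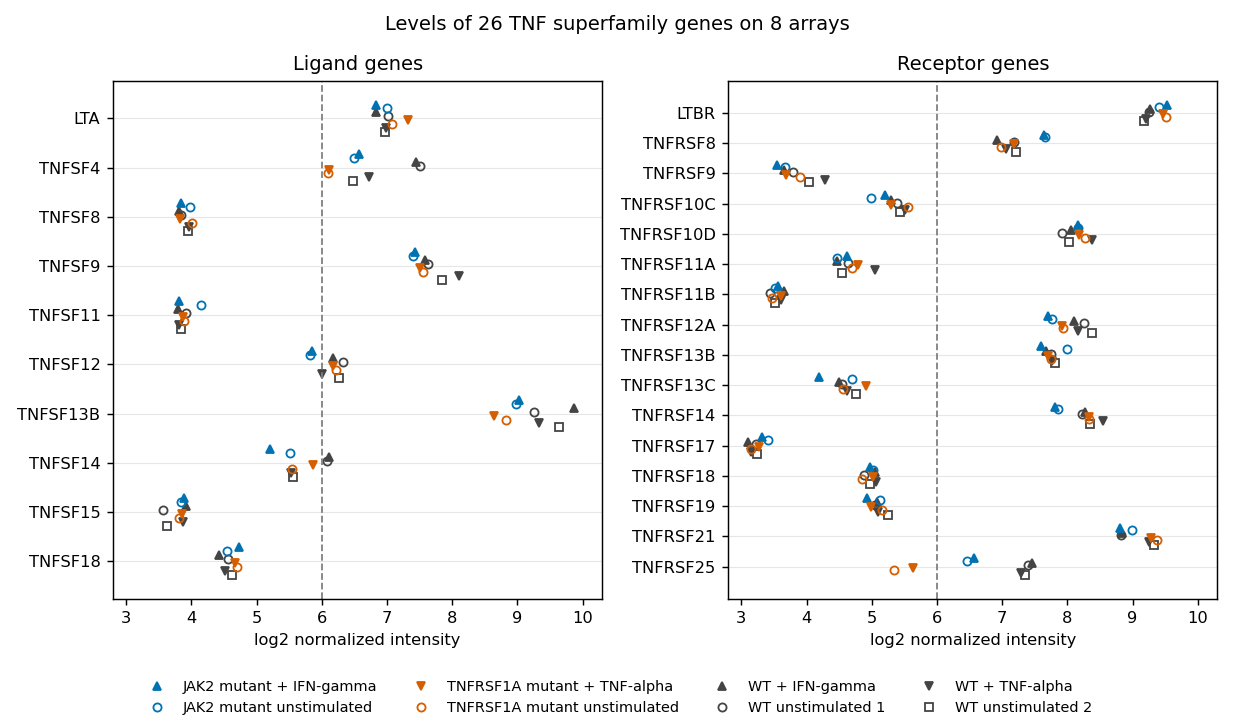
Log2 normalised intensity (x axis) of the 26 genes (rows) on each of the 8 arrays, for ligands (left) and receptors (right). Points are single arrays, and the dashed line marks log2 6. The 12 genes that stayed below the line lie between 3.11 and 5.56, and TNFRSF25, TNFSF4 and TNFSF13B have the widest ranges.

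Among the ligands and receptors that bind each other, some pairs were expressed on both sides. TNFSF13B, which encodes the B cell survival factor BAFF, had levels from 8.65 to 9.87. Of its receptors, TNFRSF13B (TACI) lay between 7.59 and 7.998, while TNFRSF13C (the BAFF receptor) and TNFRSF17 (BCMA) stayed below log2 6. TNFSF12 (TWEAK) lay between 5.82 and 6.32, close to the threshold, and its receptor TNFRSF12A (Fn14) between 7.70 and 8.38. TNFSF14 (LIGHT) lay between 5.21 and 6.11. Its receptors TNFRSF14 (HVEM) and LTBR (the lymphotoxin beta receptor, a strong activator of the non-canonical route) lay at 7.80 to 8.55 and at 9.18 to 9.53. For these 3 ligands at least 1 partner receptor was expressed.

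In other pairs only 1 side was expressed. TNFSF9 (the 4-1BB ligand) lay between 7.40 and 8.10, and its receptor TNFRSF9 between 3.55 and 4.28. TNFRSF8 (CD30) lay between 6.92 and 7.66, and its ligand TNFSF8 between 3.81 and 4.01. TNFRSF25 (the death receptor DR3) lay between 5.34 and 7.45, and its ligand TNFSF15 (TL1A) between 3.56 and 3.92. In the RANK system, TNFSF11 (RANKL), TNFRSF11A (RANK) and TNFRSF11B (the decoy osteoprotegerin) were all below log2 6. So were both genes of the GITR pair, TNFSF18 and TNFRSF18.

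The other genes included decoy receptors, a death receptor and further ligands. TNFRSF10D, a decoy receptor for TRAIL that lacks a working death domain, lay between 7.92 and 8.38, and the other decoy TNFRSF10C between 4.98 and 5.56. TNFRSF21 (DR6, a death receptor) lay between 8.81 and 9.37, and TNFRSF19 (TROY) between 4.93 and 5.26. TNFSF4, the OX40 ligand, lay between 6.10 and 7.50. LTA (lymphotoxin alpha, which pairs with lymphotoxin beta on the cell surface) lay between 6.83 and 7.32.

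Which genes count as expressed depended in part on the probe set. LTA, TNFRSF14 and TNFSF14 reached log2 6 only with probe sets that the array maker marks as open to cross-hybridisation, and without these 11 genes were expressed. The other LTA probe set lay between 4.01 and 4.57, so whether LTA is expressed rests on the marked probe set. For TNFSF14 the other probe set lay between 4.98 and 5.95.

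With IFN-gamma no expressed member differed 2-fold from unstimulated cells. The rule had left out TNFSF10, which did in WT cells. In the JAK2 mutant 0 of the 14 expressed genes differed 2-fold (0.0% of all genes compared did), and in WT cells 0 of 14 did (0.607% of all genes). The median difference of the 14 genes was -0.00 in the JAK2 mutant and -0.02 in WT cells, beside 0.00 and -0.02 for all genes compared. At 1.5-fold the count in the JAK2 mutant was 0 of 14 (0.382% of all genes). In WT cells it was 1 of 14 (1.52% of all genes), the higher TNFSF13B.

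TNFSF13B, on chromosome 13, stood at 9.02 in the JAK2 mutant with IFN-gamma, against 8.97 in the unstimulated mutant. It stood at 9.87 in WT cells with IFN-gamma, against 9.26 in unstimulated WT cells of the same experiment. The difference was thus 0.05 in the JAK2 mutant and 0.61 in WT cells, or 1.04-fold and 1.53-fold. A second probe set of the gene gave -0.01 in the mutant and 0.63 in WT cells. The WT difference exceeds the difference between the unstimulated WT arrays for this gene, which was 0.38, by a small margin only. Against WT replicate 2, at 9.63, the WT cells with IFN-gamma were higher by 0.24. Whether the response of WT cells differs from that of the JAK2 mutant was not tested, since each rests on a pair of arrays.

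The promoter of TNFSF13B is shown because it belongs to the gene with the largest IFN-gamma difference, and it was chosen after the values were seen. The window is chr13:108269468-108269767 on the plus strand, from 250 bases before to 50 bases after a transcript start in the RefSeq table of GRCh38.p14. Capitals mark its match to the core of the interferon-stimulated response element, searched as GAAANNGAA on both strands, whose first base is at position -71 from the start.
TNFSF13B: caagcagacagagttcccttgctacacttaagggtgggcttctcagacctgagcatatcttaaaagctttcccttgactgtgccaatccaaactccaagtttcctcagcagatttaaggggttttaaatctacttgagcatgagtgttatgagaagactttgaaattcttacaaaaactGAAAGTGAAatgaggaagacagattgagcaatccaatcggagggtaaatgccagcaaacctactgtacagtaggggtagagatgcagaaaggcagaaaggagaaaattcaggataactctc
A second RefSeq start of this gene lies upstream, so the same match falls 18 bases after that start. The match describes these letters and shows no bound factor. None of the matches counted here overlaps a match of another motif.

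Promoters were found for 18 of the 26 genes, in 23 windows of the same length, some of them overlapping. Counted by gene, the response element core was in 3 of 18 (16.7%), TNFSF13B, TNFSF14 and TNFSF9, beside 9.86% of the 27305 genes in the table. The GAS motif, searched as TTCNNNGAA, was in 3 of 18 (16.7%), LTA, TNFRSF9 and TNFSF11, beside 9.38% of all genes. The 10-letter NF-kappaB consensus was in 5 of 18 (27.8%), LTA, TNFRSF9, TNFRSF14, TNFRSF25 and TNFSF14, beside 7.09% of all genes. Of the genes with a match, TNFRSF9 and TNFSF11 were not expressed here, and TNFSF9 and TNFSF14 with the response element core had WT differences with IFN-gamma of -0.04 and 0.03. A match in these windows therefore went with differences near 0 as well as with that of TNFSF13B.

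The other expressed genes had smaller differences with IFN-gamma. In WT cells they ran from -0.25 (TNFRSF8) to 0.13 (TNFRSF10D), and in the JAK2 mutant, TNFSF13B included, from -0.41 (TNFRSF13B) to 0.12 (LTBR). TNFRSF13B, the TACI receptor, was at 7.59 in the JAK2 mutant with IFN-gamma, against 7.998 in the unstimulated mutant. In WT cells it was at 7.67 with IFN-gamma, against 7.75 unstimulated. A difference of this size, -0.41, is close to the SD of 0.38 between the WT arrays, which belong to different experiments. Within this JAK2 mutant comparison the SD over all genes was smaller, 0.15. The gene's other probe sets gave -0.41, -0.12 and -0.41 there, the last from a set below log2 6.

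With TNF-alpha, too, no expressed member differed 2-fold. The rule had left out TNFSF10 and TNFRSF4, which did in WT cells. The count was 0 of 14 in the TNFRSF1A mutant (0.0% of all genes compared) and 0 of 14 in WT cells (0.321%). At 1.5-fold it was also 0 of 14 in the TNFRSF1A mutant (0.0434%) and 0 of 14 in WT cells (1.17%). The median of the 14 was -0.03 in the mutant and -0.04 in WT cells, beside -0.02 and 0.01 for all genes. Differences in WT cells ran from -0.31 (TNFSF13B) to 0.35 (TNFRSF10D), with 6 of 14 above 0. In the mutant they ran from -0.18 (TNFSF13B) to 0.33 (TNFSF14), again with 6 of 14 above 0. These are the brightest probe sets. The second TNFSF13B set gave -0.49 in WT cells and -0.36 in the mutant. The other LTA set, below log2 6, gave 0.52 and -0.04, against 0.02 and 0.24 with the brightest.

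**Figure D2:**
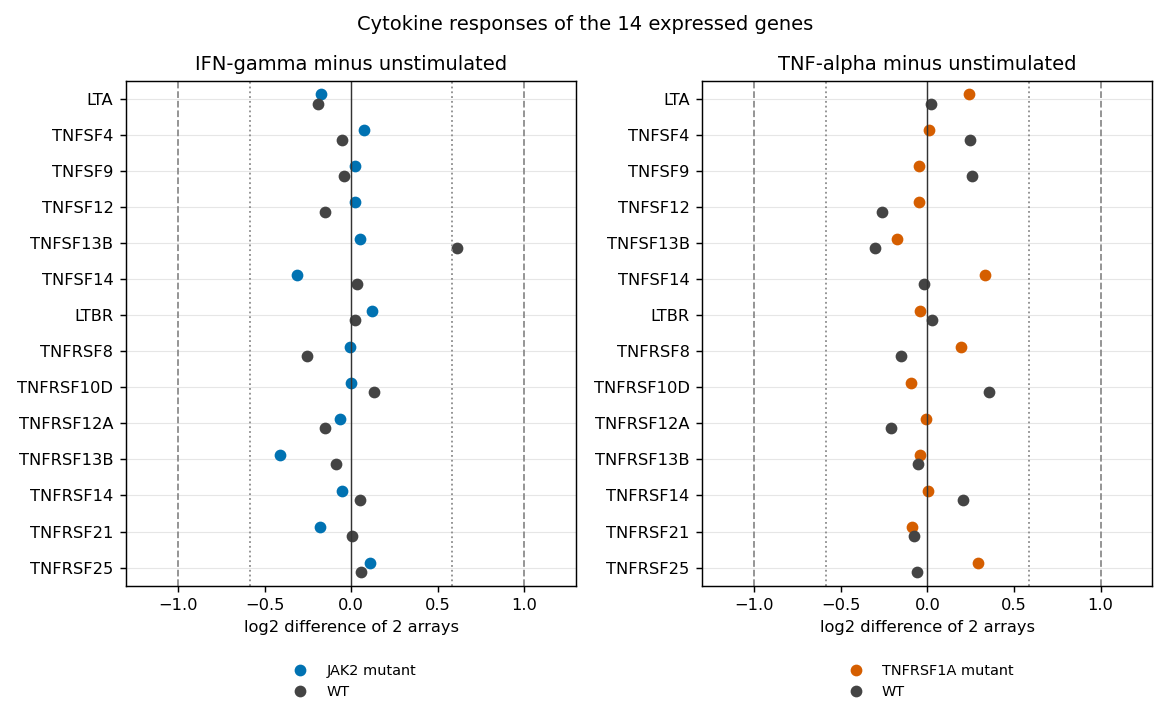
Log2 difference between stimulated and unstimulated cells (x axis) for the 14 expressed genes (rows), with IFN-gamma in the JAK2 mutant and WT (left) and TNF-alpha in the TNFRSF1A mutant and WT (right). Each point is the difference of 2 arrays, and dotted and dashed lines mark 1.5-fold and 2-fold. TNFSF13B with IFN-gamma in WT cells, at 0.61, is the only point past a dotted line.

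The members with the highest levels relative to unstimulated WT cells after TNF-alpha were a decoy receptor and costimulatory genes, with differences of 0.35 for TNFRSF10D, 0.26 for TNFSF9, 0.25 for TNFSF4 and 0.21 for TNFRSF14. None exceeded the WT spread of 0.38, which is between experiments, while the SD of this comparison over all genes was 0.20. TNFRSF10D, the TRAIL decoy, was at 8.38 in WT cells with TNF-alpha, against 8.03 unstimulated. TNFSF9, the 4-1BB ligand, was at 8.10 with TNF-alpha, against 7.84 unstimulated. TNFSF4 was at 6.72 with TNF-alpha, against 6.48 unstimulated, and TNFRSF14 was at 8.55, against 8.34. In the TNFRSF1A mutant the same differences were -0.09, -0.05, 0.01 and 0.00 for these 4 genes. Other probe sets were mixed. In WT cells and the mutant, second sets gave 0.23 and -0.27 for TNFRSF10D, 0.20 and 0.07 for TNFSF9, and -0.06 and -0.06 for TNFSF4. The next brightest TNFRSF14 sets gave 0.24 and 0.35, and 0.39 and -0.05. Its dimmer sets gave -0.04 to 0.26 in WT cells and -0.13 to 0.57 in the mutant. Of the 12 genes below log2 6 none had a cytokine difference larger than 0.50 in size, that of TNFRSF11A in WT cells with TNF-alpha, whose levels of 5.05 and 4.55 are both below log2 6. TNFRSF9, with overlapping NF-kappaB matches GGGAATTTCC and GGAATTTCCC in its promoter on chromosome 1, was at 4.28 with TNF-alpha, against 4.04 unstimulated in WT cells.

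Relatives of these genes under other symbols and in the same pathway show what the arrays registered in the same samples. Of 7 expressed superfamily genes with other symbols, 2 were at least 2-fold higher in WT cells with TNF-alpha. These were LTB, the lymphotoxin beta chain that anchors LTA at the membrane, by 1.88, and the costimulatory receptor CD40 by 1.35. The median of the 7 was 0.46. CD70, the ligand of CD27, was higher by 0.92, and the death receptor FAS by 0.46. In the TNFRSF1A mutant 0 of 7 passed (median -0.05). With IFN-gamma 0 of 7 passed in the JAK2 mutant (median -0.01) and 0 of 7 in WT cells (median -0.01).

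Among the genes left out by the rule, TNFSF10 (the ligand TRAIL) was higher by 2.22 with IFN-gamma and by 1.49 with TNF-alpha in WT cells, and TNFRSF4 (OX40) by 1.46 with TNF-alpha. The superfamily genes that passed 2-fold with a cytokine in WT cells were thus TNFSF10, TNFRSF4, LTB and CD40, all outside the rule. That rule left out TNFSF10 and TNFRSF4 by name, and members and lists were chosen with earlier results of these data known. The count of 0 among the members is therefore no result about the family. Of 6 compared genes of the non-canonical NF-kappaB pathway, RELB (1.36) and NFKB2 (1.05), its DNA-binding subunits, passed 2-fold with TNF-alpha in WT cells (median 0.63), and 0 did with IFN-gamma (median 0.03). Of 6 TRAF adaptors 0 passed with TNF-alpha (median 0.48), with TRAF3 at 0.88, TRAF4 at 0.78 and TRAF1 at 0.63. Of 9 death-domain and regulatory adaptors 0 passed with TNF-alpha (median 0.01) and 0 with IFN-gamma (median 0.19).

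The clones differed 2-fold from WT in single members, and more of all genes differed there than with a cytokine. In the unstimulated JAK2 mutant 1 of 14 expressed genes was 2-fold lower than WT replicate 1, TNFSF4, where 2.13% of all genes differed 2-fold. With IFN-gamma in both, 0 of 14 passed (3.02% of all genes). In the unstimulated TNFRSF1A mutant 1 of 14 was 2-fold lower than WT replicate 2, TNFRSF25, where 0.98% of all genes differed. With TNF-alpha in both, 1 of 14 was lower, again TNFRSF25 (1.22% of all genes). The pair of WT arrays sets the scale: 1 of 14 was 2-fold lower in WT replicate 2 than in replicate 1, TNFSF4, where 1.99% of all genes differed. Each of these counts is 0 or a single gene of 14, so they describe TNFSF4 and TNFRSF25 and not the family.

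At 1.5-fold the unstimulated JAK2 mutant had 2 of 14 lower, TNFRSF25 and TNFSF4 (6.16% of all genes differed). With IFN-gamma in both there were 4 lower, TNFRSF25, TNFSF4, TNFSF13B and TNFSF14, and 1 higher, TNFRSF8 (8.35% of all genes). TNFSF14 was compared only because the WT arrays of this experiment reached log2 6, so the level filter favoured a lower value in the mutant. Its bound there, -0.36, is short of 1.5-fold, and it also enters the medians below. The unstimulated TNFRSF1A mutant had 2 lower, TNFRSF25 and TNFSF13B (3.83% of all genes). With TNF-alpha in both there were 4 lower, TNFRSF25, TNFSF13B, TNFSF4 and TNFSF9 (3.76% of all genes). Between the WT arrays 1 passed, TNFSF4 (11.2% of all genes). The median differences of the 14 genes from WT were -0.24 and -0.26 in the JAK2 mutant, with IFN-gamma and unstimulated, beside 0.03 and 0.03 for all genes. In the TNFRSF1A mutant they were -0.13 and -0.06, with TNF-alpha and unstimulated, beside 0.01 and 0.04.

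**Figure D3:**
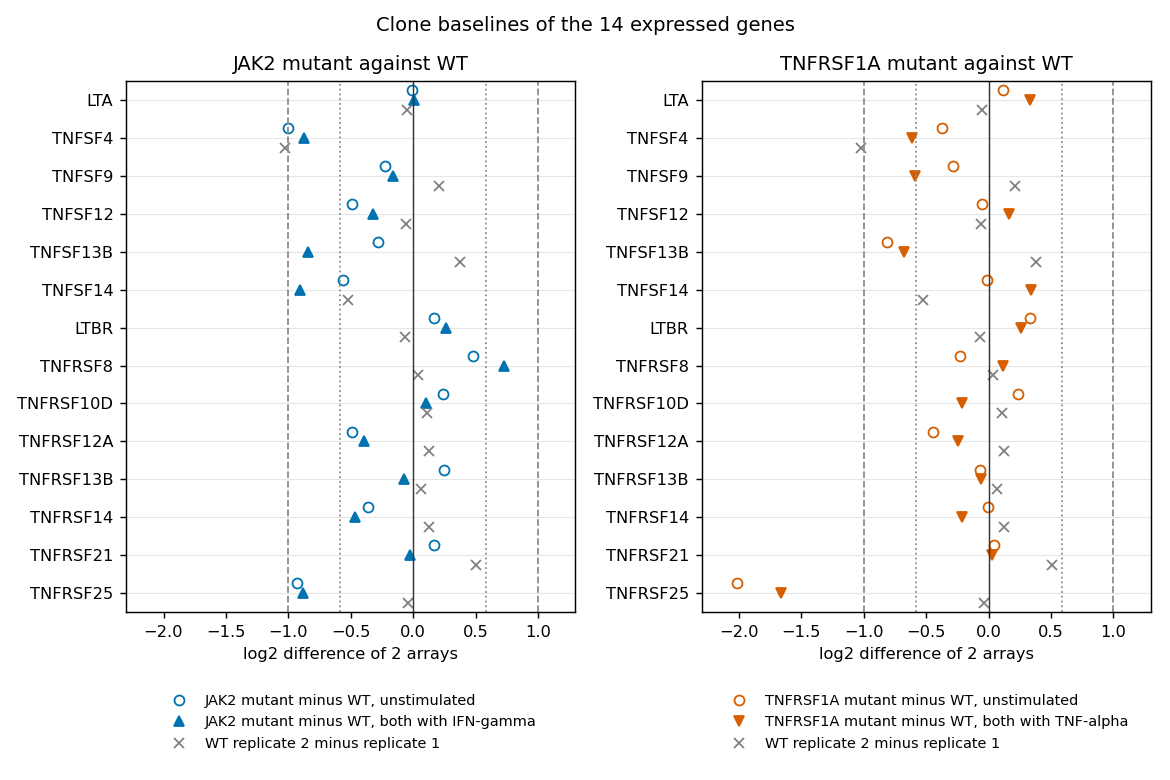
Log2 difference between each mutant and WT (x axis) for the 14 expressed genes (rows), unstimulated (open circles) and with the cytokine in both (triangles), with the JAK2 mutant on the left and the TNFRSF1A mutant on the right. Crosses show WT replicate 2 minus replicate 1, and dotted and dashed lines mark 1.5-fold and 2-fold. TNFRSF25 in the TNFRSF1A mutant lies at -2.01 and -1.66, while its WT pair lies at -0.04.

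TNFRSF25, on chromosome 1, encodes DR3, a death-domain receptor best known on T cells. It stood at 5.63 with TNF-alpha and 5.34 unstimulated in the TNFRSF1A mutant, against 7.29 and 7.35 in WT cells. It stood at 6.57 with IFN-gamma and 6.46 unstimulated in the JAK2 mutant, against 7.45 and 7.39 in WT cells. All 4 WT arrays lay above both JAK2 mutant arrays, and these lay above both TNFRSF1A mutant arrays, with no overlap between the clones.

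The difference from WT was -1.66 in the TNFRSF1A mutant with TNF-alpha and -2.01 unstimulated, or 0.316 and 0.247 times the WT intensity. In the JAK2 mutant it was -0.88 with IFN-gamma and -0.93 unstimulated. The WT pair differed by -0.04 for this gene. Both TNFRSF1A mutant values lay in the range of the array's background probe sets, so these differences are bounds, at -1.25 with TNF-alpha and -1.34 unstimulated or further below 0. Another TNFRSF25 probe set showed no such difference (0.09 with TNF-alpha and 0.12 unstimulated in the TNFRSF1A mutant). It lay between 5.93 and 6.17 on all 8 arrays, close to the upper quartiles of the background probe sets (5.76 to 6.04). In the JAK2 mutant that set gave -0.14 with IFN-gamma and 0.01 unstimulated. A level near log2 6 can still fall on these arrays. For 1 JAK2 probe set the JAK2 mutant read 3.61 to 3.90, against 5.97 to 6.74 on the other 6 arrays. The TNFRSF25 difference was thus seen with the brighter set alone. With the mean of both sets the differences in the TNFRSF1A mutant were -0.79 with TNF-alpha and -0.95 unstimulated, short of 2-fold. In a limma fit, which borrows its error from the pair of WT arrays alone, the adjusted p was 0.38 for the TNFRSF1A mutant with TNF-alpha and 0.14 unstimulated.

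Some other measures also differed between the mutants and WT. Of those given here, only CD3D and the T cell sum were lowest in the TNFRSF1A mutant, as TNFRSF25 was. The marker sums given were lower in the mutant on each matched pair, which the sums of the other marker lists were not. CD3D, the T cell marker that the cells expressed, was with cytokine and unstimulated at 8.71 and 8.74 in the TNFRSF1A mutant, against 10.03 and 9.90 in WT cells of that experiment, and at 8.92 and 8.83 in the JAK2 mutant, against 9.31 and 9.33 in WT cells. The log2 sum of all 6 T cell markers was 9.13 and 9.14 in the TNFRSF1A mutant and 9.24 and 9.22 in the JAK2 mutant, against 9.60 to 10.2 in WT cells. The other 5 markers, CD3E among them, stayed below log2 6, so this sum mostly repeats CD3D. These 5 did not fall in the TNFRSF1A mutant. They differed from WT by 0.06 (CD2) to 0.41 (CD3G) with TNF-alpha and by 0.01 (CD2) to 0.18 (CD3G) unstimulated. In the JAK2 mutant they ran from -0.41 (CD28) to -0.0011 (CD2) with IFN-gamma and from -0.31 (CD28) to 0.39 (TRAT1) unstimulated. The summed endothelial or stromal markers, of which PECAM1 and VWF reached log2 6, were at 8.77 and 8.77 in the TNFRSF1A mutant and 8.55 and 8.68 in the JAK2 mutant, against 9.11 to 9.30 in WT cells. The summed NK cell markers were lower in the mutant on each matched pair, at 9.21 and 9.11 in the TNFRSF1A mutant, against 9.30 and 9.28 in WT cells, and at 8.88 and 8.93 in the JAK2 mutant, against 9.21 and 9.32. The actin 3'-to-5' signal ratio, a measure of RNA and labelling quality, was in the same order 5.53 and 4.51 in the TNFRSF1A mutant, against 4.81 and 3.27 in WT cells, and 6.47 and 5.74 in the JAK2 mutant, against 4.81 and 4.41. The GAPDH 3'-to-5' ratio varied less, at 1.15 and 1.14 in the TNFRSF1A mutant, against 1.14 and 1.09 in WT cells. In the JAK2 mutant it was 1.25 and 1.27, against 1.20 and 1.21. The part of these measures in the result was not tested.

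The thresholds that TNFRSF25 passed in the mutants were also counted over all genes. Of the 11529 genes compared, 63 (0.546%) were 2-fold lower in the TNFRSF1A mutant in both treatments, and 383 (3.32%) were 1.5-fold lower in the JAK2 mutant in both. Of the 63 genes, 38 (0.33% of all genes compared) met both conditions, so most genes lower in the TNFRSF1A mutant were lower in the JAK2 mutant too. The conditions were set after the gene's values were seen, so these shares do not measure how unusual TNFRSF25 is. Of its neighbours on the chromosome, the 7 that were compared, among them ESPN and PLEKHG5 on either side, did not differ 2-fold from WT in either mutant.

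The TNFRSF25 promoter is shown because this gene had the largest clone difference, and it too was chosen after the values were seen. The window is chr1:6466124-6466423 on the minus strand, from 250 bases before to 50 bases after the start in RefSeq on GRCh38.p14. It is 73.3% G and C, beside a median of 58.7% over all windows, and holds 31 CG dinucleotides, beside a median of 14. Capitals mark its NF-kappaB consensus match, which begins 36 bases after the start.
TNFRSF25: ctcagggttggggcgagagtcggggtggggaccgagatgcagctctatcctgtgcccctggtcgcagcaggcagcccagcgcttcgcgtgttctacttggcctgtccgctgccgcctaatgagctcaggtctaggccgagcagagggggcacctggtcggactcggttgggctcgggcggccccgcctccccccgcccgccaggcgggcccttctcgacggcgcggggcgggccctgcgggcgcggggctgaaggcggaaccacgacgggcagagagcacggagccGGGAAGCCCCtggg
The differences of TNFRSF25 in WT cells were 0.06 with IFN-gamma and -0.06 with TNF-alpha, within the WT spread.

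**Figure D4:**
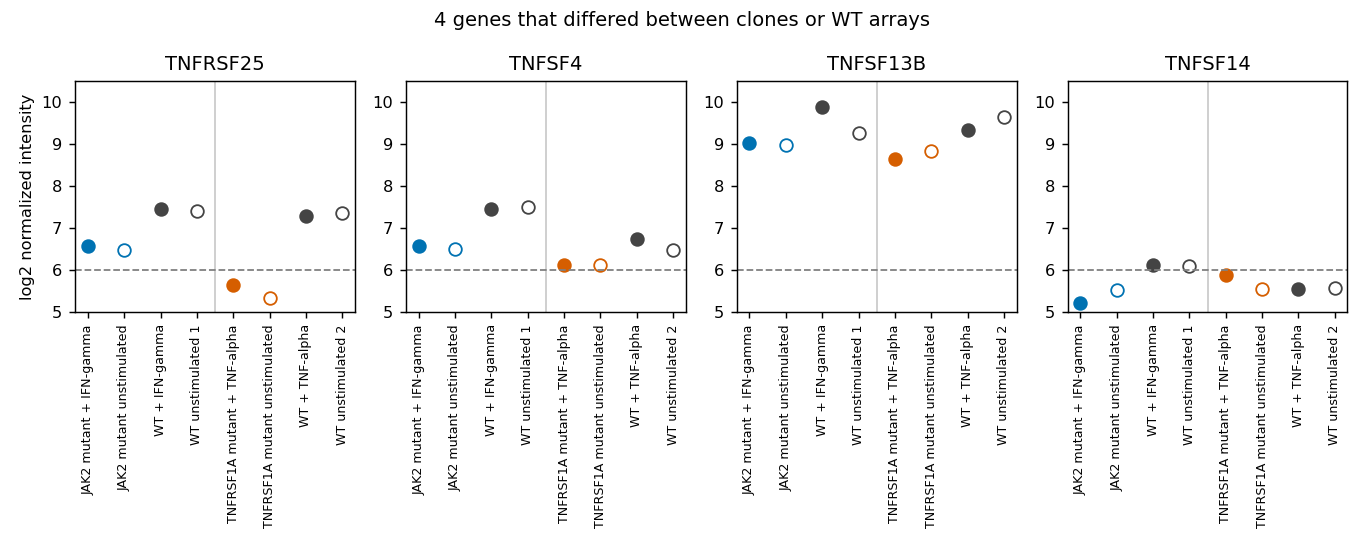
Log2 normalised intensity (y axis) of TNFRSF25, TNFSF4, TNFSF13B and TNFSF14 on each of the 8 arrays (x axis), with the IFN-gamma experiment left and the TNF-alpha experiment right of the grey line. Filled points are stimulated cells, open points unstimulated cells, and the dashed line marks log2 6. TNFRSF25 is at 5.34 to 5.63 in the TNFRSF1A mutant, 6.46 to 6.57 in the JAK2 mutant and 7.29 to 7.45 in WT cells.

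TNFSF4, also on chromosome 1, encodes the OX40 ligand of antigen-presenting cells. It stood at 6.57 with IFN-gamma and 6.50 unstimulated in the JAK2 mutant, against 7.45 and 7.50 in WT cells. In the other experiment it stood at 6.11 with TNF-alpha and 6.10 unstimulated in the TNFRSF1A mutant, against 6.72 and 6.48 in WT cells. The WT arrays of the IFN-gamma experiment were thus the high ones, and WT replicate 2 lay level with the JAK2 mutant.

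The unstimulated JAK2 mutant had 0.499 times the intensity of WT replicate 1, and WT replicate 2 had 0.491 times that of replicate 1, a log2 difference of -1.02. From WT replicate 2 the mutant differed by 0.02. A second TNFSF4 probe set, below log2 6 on all arrays, gave -0.40 with IFN-gamma and -0.17 unstimulated in the JAK2 mutant and 0.01 and 0.01 in the TNFRSF1A mutant. With the mean of both sets the unstimulated JAK2 difference was -0.58, short of 2-fold. With IFN-gamma in both, the mutant differed from WT by -0.88. The 2-fold difference in the JAK2 mutant is therefore of the size seen between unstimulated WT arrays. In the TNFRSF1A mutant the difference was -0.61 with TNF-alpha and -0.37 unstimulated, and -1.40 from WT replicate 1. Both TNFRSF1A mutant arrays lay below all 4 WT arrays.

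TNFSF13B, the BAFF gene whose promoter is printed above, was lower in both mutants on every matched pair. It stood at 9.02 with IFN-gamma and 8.97 unstimulated in the JAK2 mutant, against 9.87 and 9.26 in WT cells. It stood at 8.65 with TNF-alpha and 8.82 unstimulated in the TNFRSF1A mutant, against 9.33 and 9.63 in WT cells. All 4 mutant arrays lay below all 4 WT arrays. The differences from WT were -0.85 with IFN-gamma and -0.28 unstimulated in the JAK2 mutant, and -0.68 with TNF-alpha and -0.81 unstimulated in the TNFRSF1A mutant. The unstimulated WT arrays differed by 0.38. The second probe set gave -0.85, -0.21, -0.60 and -0.73 in the same order.

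TNFSF14, the LIGHT gene on chromosome 19, lay near the threshold. It stood at 5.21 with IFN-gamma and 5.52 unstimulated in the JAK2 mutant, against 6.11 and 6.08 in WT cells. It stood at 5.87 with TNF-alpha and 5.54 unstimulated in the TNFRSF1A mutant, against 5.53 and 5.55 in WT cells. Only the WT arrays of the IFN-gamma experiment reached log2 6. The WT pair differed by -0.52, with a bound of -0.06 since WT replicate 2 lay in the background range. The difference in the JAK2 mutant was -0.91 with IFN-gamma and -0.56 unstimulated, but its values lay in the background range, and the bounds were -0.36 and -0.22.

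TNFRSF8, which encodes CD30, was the expressed gene that was higher in the JAK2 mutant by 1.5-fold. It stood at 7.65 with IFN-gamma and 7.66 unstimulated in the JAK2 mutant, against 6.92 and 7.18 in WT cells. It stood at 7.17 with TNF-alpha and 6.98 unstimulated in the TNFRSF1A mutant, against 7.06 and 7.21 in WT cells. Both JAK2 mutant arrays lay above the other 6. The differences in the JAK2 mutant were 0.73 with IFN-gamma and 0.48 unstimulated, and those in the TNFRSF1A mutant were 0.11 with TNF-alpha and -0.23 unstimulated. A second TNFRSF8 probe set gave -0.05 with IFN-gamma in the JAK2 mutant. Both values of that pair, 5.74 and 5.79, lay in the background range, and the difference with IFN-gamma was seen with the brighter set alone. Unstimulated it gave 0.65, at 6.28 against 5.64 in WT cells. That WT value also lay in the background range, so the direction was seen with both sets but the size on the second is uncertain.

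TNFSF9, which encodes the 4-1BB ligand, differed by -0.59 in the TNFRSF1A mutant with TNF-alpha. It stood at 7.51 with TNF-alpha and 7.56 unstimulated in the TNFRSF1A mutant, against 8.10 and 7.84 in WT cells. It stood at 7.43 with IFN-gamma and 7.40 unstimulated in the JAK2 mutant, against 7.59 and 7.63 in WT cells. The highest mutant level, 7.56, lay just below the lowest WT level, 7.59. On the second probe set the arrays overlapped, with mutant levels up to 7.40 and WT levels from 7.30. It gave differences of -0.32 with TNF-alpha and -0.19 unstimulated in the TNFRSF1A mutant, and -0.23 with IFN-gamma and 0.02 unstimulated in the JAK2 mutant.

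With their brightest probe sets, the other expressed genes differed from matched WT by less than 1.5-fold. TNFRSF14 was at -0.47 with IFN-gamma and -0.36 unstimulated in the JAK2 mutant. Its next brightest sets passed 1.5-fold with IFN-gamma, at -0.60 and -0.69, but gave 0.16 and -0.03 unstimulated. Its dimmer sets gave -0.42 to 0.02 with IFN-gamma. TNFRSF12A, the TWEAK receptor, was at 7.70 to 7.93 on the mutant arrays, against 8.10 to 8.38 on the WT arrays. LTBR was higher in both mutants in both treatments, by 0.26 and 0.17 in the JAK2 mutant and by 0.26 and 0.33 in the TNFRSF1A mutant, with cytokine and unstimulated. A second LTBR probe set, near log2 7, gave 0.05 and 0.03 in the JAK2 mutant and 0.10 and -0.0017 in the TNFRSF1A mutant, so the difference was seen with the brighter set alone. LTBR lies close to TNFRSF1A on chromosome 12, where the trapped gene itself differed by -2.79 in the unstimulated TNFRSF1A mutant. TNFRSF21 separated the experiments and not the clones: its levels were 9.26 to 9.37 on the 4 arrays of the TNF-alpha experiment, against 8.81 to 8.99 on those of the IFN-gamma experiment.

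With the brightest probe sets, several of these genes were lower in both mutants. All 4 mutant arrays lay below all 4 WT arrays for 4 of the 14 expressed genes (TNFRSF12A, TNFRSF25, TNFSF13B and TNFSF9), beside 2.71% of all genes compared. They lay above all 4 WT arrays for 1 of 14, LTBR, beside 3.04% of all genes. Set against the matched WT array, 6 of 14 were lower in both mutants and both treatments, the same 4 with TNFRSF14 and TNFSF4, beside 10.9% of all genes. LTBR was the 1 gene of 14 that was higher throughout, beside 18.0% of all genes. With the mean of each gene's probe sets, an alternative added after the data were seen, 4 of 14 were again below (the same genes), LTBR again above, 5 lower on all matched pairs (without TNFRSF14) and 2 higher (LTBR and TNFRSF8). The second sets of TNFRSF25, TNFSF9 and LTBR showed overlapping arrays, that of TNFRSF25 at levels close to the background. The second set of TNFSF13B did not overlap, and TNFRSF12A has a single set. TNFRSF14 was at -0.01 in the unstimulated TNFRSF1A mutant, and 4 of its 6 other sets were above 0 there. These patterns were set after the values were seen, and the actin ratios given above, 4.51 to 6.47 on the mutant arrays against 3.27 to 4.81 on the WT arrays, were higher in the mutant on each matched pair, and their part in the result was not tested.

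Relatives outside the rule also had different baselines. In the JAK2 mutant 2 of 7 superfamily genes with other symbols were 2-fold lower in both treatments and 0 were higher. These were LTB, at -2.51 with IFN-gamma and -2.45 unstimulated, and CD70, at -1.07 and -1.16. In the TNFRSF1A mutant CD70 was at -2.86 with TNF-alpha and -2.24 unstimulated. LTB and CD40 passed 2-fold there with TNF-alpha in both (-1.86 and -1.37), and were at -0.13 and -0.20 unstimulated. CD70 lies between TNFSF9 and TNFSF14 on chromosome 19. The differences of its neighbours in the unstimulated TNFRSF1A mutant were -0.29 for TNFSF9 and -0.02 for TNFSF14, against -2.24 for CD70.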

How the data were processed

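RNA was hybridised to 1-colour Affymetrix PrimeView arrays, 1 per sample, after labelling 100 ng of total RNA, per the labels. The authors deposited a normalized intensity for each of 49395 probe sets, which the submitters' processing notes credit to RMA and to Expression Console 1.1 (Affymetrix). Array medians of 63.9 to 66.9 show a linear scale, so log2 was taken; the lowest intensity was 6.72 and no pseudocount was added. RMA equalises the arrays' distributions and compresses small differences of dim probe sets.

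Probe sets were named from the platform annotation, with symbols updated through gene identifiers to RefSeq (GRCh38.p14). A gene's value was its brightest single-gene probe set by mean over 8 arrays. Comparisons, thresholds and levels are those given above. Values below the upper quartile of the 23 background probe sets of their array (5.76 to 6.04) were treated as lying in the background range, and differences from such values as bounds. Members and lists were chosen with earlier results of these data known. All expressed members past 1.5-fold in any comparison were named with all 8 values, and the others were given by level and range. Files were read with Python 3.11.15 and pandas 2.3.3. The alternative fit of 7 conditions used limma 3.58.1 in R 4.3.3, with 1 residual degree of freedom and Benjamini-Hochberg adjustment over 11529 genes. The listed genes CD40LG and TRAF2 were not analysed here. The number of arrays limits the precision.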

Additional observations from a re-analysis of the deposited data

How the results depend on the processing

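The cytokine counts of 0 at 2-fold were also 0 with other level filters, loess correction, the mean of probe sets, no cross-hybridising sets and either WT control. At 1.5-fold, WT cells with IFN-gamma had 1. The 3-fold, bounds and limma settings say nothing here, since the first 2 can only lower a count and limma called at most 1 of 11529 genes in these comparisons. The single calls against WT were less stable. For the unstimulated JAK2 mutant the count was 2 at 1.5-fold and 0 at 3-fold, at a level of 8, with the mean of probe sets, with limma, without WT replicate 1 and with the mean of both WT arrays. The TNFSF4 difference there changed sign, to 0.0224, without WT replicate 1. For the unstimulated TNFRSF1A mutant the count was 2 at 1.5-fold and 2 without WT replicate 2 (TNFRSF25 and TNFSF4), and 0 at a level of 8, with the mean of probe sets and with limma. With IFN-gamma in both it was 5 at 1.5-fold. With TNF-alpha in both it was 4 at 1.5-fold and 0 at a level of 8, with the mean of probe sets and with limma. For the WT pair it was 0 at 3-fold, at a level of 8, with loess and with the mean of probe sets. A level of 8 leaves out TNFRSF25 and TNFSF4, whose highest values are 7.45 and 7.50. The cause of the other changes was not tested. Over all alternatives, TNFRSF25 ran from -2.06 to -0.95 in the unstimulated TNFRSF1A mutant, and TNFSF13B from 0.24 to 0.63 with IFN-gamma in WT cells. Expressed genes numbered 18 at log2 5 and 12 at log2 7. No paired analysis was possible because the compared groups share fewer than 2 replicate numbers. Bounds and the setting without cross-hybridising probe sets were added after the data were seen.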

Other observations

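Among the 12 genes below log2 6, the difference of largest size in any comparison was -0.59, that of TNFRSF9 in the TNFRSF1A mutant against WT, both with TNF-alpha, with levels of 3.68 and 4.28.

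Some neighbours of the described genes on the chromosome differed more than they did. CD9, a tetraspanin gene near LTBR, differed from WT by -3.47 with IFN-gamma and -3.49 unstimulated in the JAK2 mutant, and by -1.74 with TNF-alpha and -1.64 unstimulated in the TNFRSF1A mutant. The WT pair differed by 0.35 for CD9. TAPBPL, an antigen presentation gene on the other side of LTBR, was higher by 0.38 in the JAK2 mutant and by 1.04 in WT cells with IFN-gamma.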
